A study of Mus musculus with 6 samples.

Results

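The 40 genes described here encode ligands, receptors, Smads, targets and modulators of bone morphogenetic protein (BMP) and transforming growth factor beta (TGF-beta) signalling. They were chosen by name, as listed members of the pathway and with earlier results of these data known, from the 49315 genes of the count files, and all 40 were matched. Their transcripts were counted in endothelial cells sorted from tumours of 4T1, a mouse mammary carcinoma line that can be transplanted. Female Balb/c mice had received 4T1 cells in the inguinal mammary fat pad at 8 weeks of age, and tumours were taken after 2 weeks, when the mice were 10 weeks old. Every mouse received 1E12 gold nanoparticles by tail vein, 50 nm in diameter with a 5 kDa methoxy-polyethylene glycol coat and the dye Cy5, and tumours were harvested 1 hour later. No group was left without nanoparticles. Cells were depleted of CD45+ leukocytes, enriched for CD31+ cells and sorted by flow cytometry. The nanoparticle-positive fraction is called NP+ and the nanoparticle-negative fraction NP-. MET-106, MET-107 and MET-108 are the 3 tumours, each of which gave 1 NP+ and 1 NP- library. The comparison addresses which transcripts differ between tumour endothelial cells that did and did not carry nanoparticles.

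As background, ligands of this family are secreted dimers that bring type I and type II receptor kinases together. The type I receptors then phosphorylate Smads: Smad1, Smad5 and Smad9 on the BMP branch, and Smad2 and Smad3 on the TGF-beta and activin branch, each of which enters the nucleus with Smad4. Endothelial cells carry a receptor set of their own, with the type I receptor ALK1 (Acvrl1) and the co-receptor endoglin (Eng). Loss of either causes arteriovenous malformations in hereditary haemorrhagic telangiectasia, and loss of the type II receptor Bmpr2 is a cause of heritable pulmonary arterial hypertension.

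Levels below are in CPM, a gene's count for every 1000000 counts of its library after TMM scaling, and 3 values in a row follow the order MET-106, MET-107, MET-108. Means are given with the SD over 3 libraries. The libraries held 20856410 to 58089600 gene counts. The lowest totals were those of the NP- libraries of MET-107 (20856410) and MET-108 (27396773). The NP- library of MET-106 held 44694267 and the NP+ libraries 41830256 to 58089600. Pairs of NP+ libraries correlated at 0.989 to 0.993 in log2 CPM over tested genes and pairs of NP- libraries at 0.913 to 0.933, which describes these libraries only. The NP- library of MET-106 correlated with NP+ libraries at 0.968 to 0.970, higher than with either of the other NP- libraries. All 10 endothelial markers examined were detected in every library, with a summed level of 9946 to 12402 CPM in NP+ and 6671 to 9699.7 CPM in NP-. Their median log2 fold change was 0.42, and 3 of the 10 were higher in NP+ at an unadjusted p under 0.05, against 8.01% of all tested genes. For 5 of the 10, every NP+ library lay above every NP- library, against 13.3% of all tested genes. Other cell types' markers, given below beside the genes they moved with, were highest in the NP- library of MET-106 for fibroblasts, pericytes and epithelial cells and in that of MET-107 for lymphatic endothelium. In bulk samples like these, fewer cells of a type and less RNA per cell cannot be told apart.

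The ligand genes Bmp2, Bmp4 and Inhbb, the receptor genes Eng, Acvr2a and Bmpr2, and Smad1 and Smad3 had higher levels in NP+ than in NP- cells in 3 of 3 tumours, with no overlap between the groups. Tgfb3, Inhba, Bmpr1a, Acvr1, Ltbp1 and Ltbp2 had lower levels in NP+ in 3 of 3 tumours, also with no overlap. With or without overlap, 11 of the 40 genes were higher in 3 of 3 tumours and 12 were lower. Of all tested genes, 20.0% and 30.2% were. None of the 40 genes passed an adjusted p of 0.05 over the 23989 genes tested (edgeR's quasi-likelihood test, Benjamini-Hochberg adjustment), a rule that 0.0125% of all tested genes passed as higher and 0.0167% as lower. With the tumour as a block, 0 of the 40 passed as well, and 2 genes of the whole table (0.00834%) were higher and 13 (0.0542%) lower in place of 3 and 4. The lowest adjusted p among the 40 was 0.0600 for Tgfb3, followed by 0.0681 for Bmp2 and 0.0989 for Ltbp1.

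At an unadjusted p under 0.05, 8 of the 40 genes (20.0%) were higher in NP+ and 8 (20.0%) were lower, against 8.01% and 15.4% of all tested genes. With the tumour as a block these counts were 7 and 5, against 7.85% and 14.6% of all tested genes. With upper-quartile scaling the split was 5 higher and 11 lower, against 3.27% and 19.6% of all genes. With total-count scaling it was 3 (Bmp2, Bmp4 and Smad3) and 11, against 2.54% and 21% of all genes. Eng and Acvr2a were the other 2 under upper-quartile scaling, so Inhbb, Bmpr2 and Smad1 had a p under 0.05 under neither of these scalings, whereas the lower genes gained Smad7, Id1 and Id3 under both. The 3 NP+ libraries lay above the 3 NP- libraries for 9 genes (22.5%) and below them for 8 (20.0%), against 13.3% and 15.6% of all tested genes. The median log2 fold change (NP+ over NP-) of the 40 genes was -0.0053, against -0.29 for all tested genes. Upper-quartile scaling gave -0.53 for all genes and -0.27 for the 40, and total-count scaling gave -0.59 and -0.31. The 40 genes all passed the low-count filter, 38 of them in every NP+ library and 40 in every NP- library, the exceptions being Smad9 and Ltbp2. With the NP- library of MET-106 left out, Bmp2, Acvr2a and Smad3 passed as higher (3.48% of all genes tested in that fit) and Tgfb3 and Ltbp1 as lower (4.86%). Without the NP- library of MET-108, Bmp2 and Smad1 passed as higher (0.428%) and Tgfb3, Ltbp1 and Ltbp2 as lower (0.671%).

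The authors' deposited table, made with DESeq2 per the submitters' processing notes, gives an adjusted p under 0.05 for 11 of the 40 genes. In the authors' deposited table Bmp2, Bmp4, Inhbb, Eng, Smad1 and Smad3 are higher in NP+ (3.71% of its genes with an adjusted p are), and Tgfb3, Inhba, Bmpr1a, Ltbp1 and Ltbp2 are lower (9.45%). Among the 40, the lowest adjusted p in the authors' deposited table are 4.4e-07 for Tgfb3 and 3.92e-06 for Bmp2. The same 11 genes passed when DESeq2 was run on the deposited counts, where 4.03% of all tested genes were higher and 9.86% lower. In what follows "passed" refers to edgeR's test, and a p under 0.05 that is not called adjusted is the unadjusted p of that fit.

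**Figure D1:**
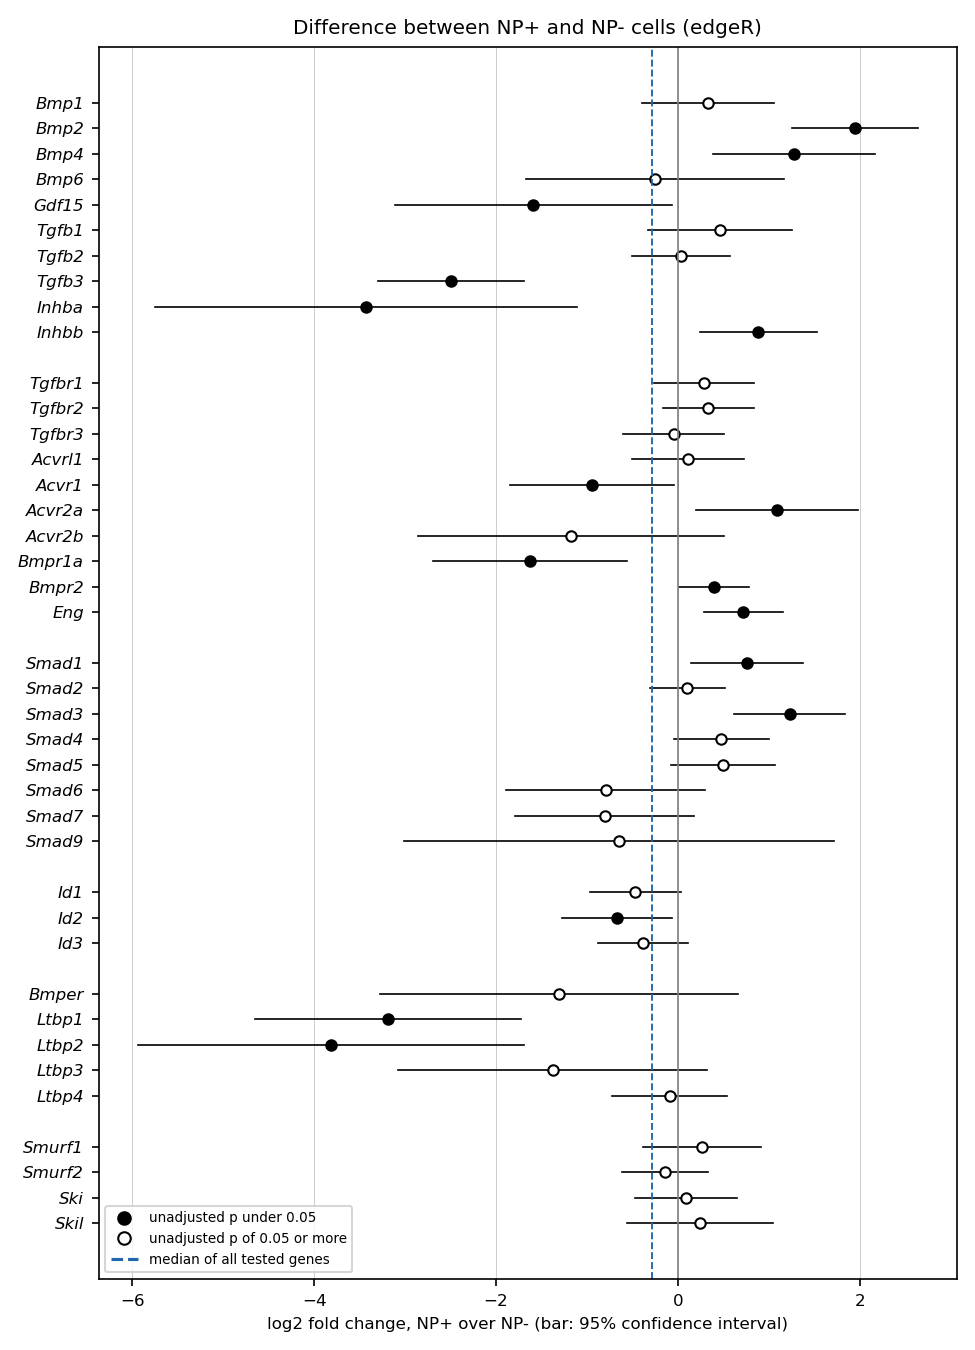
Log2 fold changes (x axis, NP+ over NP-) of the 40 genes (y axis, grouped as ligands, receptors, Smads, Id genes, extracellular modulators and intracellular inhibitors), with 95% confidence intervals as bars. Filled points have an unadjusted p under 0.05 (8 to the right of 0 and 8 to the left), and the dashed line marks the median of all tested genes at -0.29.

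Promoter sequences are shown for Eng, Smad3, Inhba and Ltbp1, which are among the 8 genes with p under 0.01 and for which a start site was listed without a counted exon of the gene in the window. They are the 250 bases before RefSeq transcription starts on GRCm38.p6, 5′ to 3′ on the gene's strand. Capitals mark CAGAC or its complement GTCTG, the core that Smad3 and Smad4 contact, and GGCGCC, a palindromic GC-rich element of BMP-responsive promoters. Eng is at chr2:32646345-32646594 (plus strand), Smad3 at chr9:63757995-63758244 (minus strand) and Inhba at chr13:16011601-16011850 (plus strand). Ltbp1 has an upstream start at chr17:75005279-75005528 and a downstream start at chr17:75178531-75178780 (plus strand), and the counts per gene do not tell which start was used.
Eng: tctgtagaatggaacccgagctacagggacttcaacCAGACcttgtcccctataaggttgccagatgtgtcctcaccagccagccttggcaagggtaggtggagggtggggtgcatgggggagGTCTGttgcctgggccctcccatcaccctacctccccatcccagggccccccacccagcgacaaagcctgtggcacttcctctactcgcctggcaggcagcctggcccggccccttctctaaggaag
Smad3: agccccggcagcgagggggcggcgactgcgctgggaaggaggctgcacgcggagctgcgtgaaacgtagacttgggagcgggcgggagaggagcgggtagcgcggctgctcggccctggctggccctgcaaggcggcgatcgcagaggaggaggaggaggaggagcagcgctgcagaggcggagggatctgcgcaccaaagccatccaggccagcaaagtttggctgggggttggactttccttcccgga
Inhba: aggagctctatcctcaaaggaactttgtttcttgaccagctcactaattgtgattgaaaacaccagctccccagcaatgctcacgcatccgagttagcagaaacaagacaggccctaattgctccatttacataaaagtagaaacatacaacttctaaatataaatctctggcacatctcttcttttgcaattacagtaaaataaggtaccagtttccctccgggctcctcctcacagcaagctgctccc
Ltbp1 upstream: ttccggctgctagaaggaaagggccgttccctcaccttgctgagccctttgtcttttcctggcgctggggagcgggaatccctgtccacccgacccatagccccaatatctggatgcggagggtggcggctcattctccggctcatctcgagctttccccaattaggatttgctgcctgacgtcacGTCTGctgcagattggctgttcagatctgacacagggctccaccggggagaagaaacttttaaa
Ltbp1 downstream: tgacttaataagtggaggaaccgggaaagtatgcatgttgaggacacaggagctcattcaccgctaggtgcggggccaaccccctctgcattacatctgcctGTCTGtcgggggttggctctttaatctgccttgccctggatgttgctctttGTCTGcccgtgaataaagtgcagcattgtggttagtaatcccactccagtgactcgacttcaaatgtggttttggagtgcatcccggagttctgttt
CAGAC or GTCTG occurs 2 times before Eng, 1 time before the upstream start of Ltbp1 and 2 times before its downstream start, with no match before Smad3 or Inhba. GGCGCC occurs in none of these 5 windows. Of 32851 windows of this length over all RefSeq starts, 42.2% hold CAGAC or GTCTG and 9.59% hold GGCGCC. Of the 37 windows that belong to 30 of the 40 genes, 45.9% and 27.0% do. The 2 motifs can share a base where they abut, and a match describes letters only.

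On GRCm38, Bmp2 (ENSMUSG00000027358) on chromosome 2 from 133552159 to 133562885, plus strand, and Tgfb3 (ENSMUSG00000021253) on chromosome 12 from 86056744 to 86079041, minus strand, were the genes with the lowest p in each direction. Eng (ENSMUSG00000026814) on chromosome 2 from 32646595 to 32682669, plus strand, Smad3 (ENSMUSG00000032402) on chromosome 9 from 63646767 to 63757994, minus strand, and Ltbp1 (ENSMUSG00000001870) on chromosome 17 from 75005568 to 75392512, plus strand, had a p under 0.005, as did Ltbp2 (ENSMUSG00000002020) on chromosome 12 from 84783212 to 84876532, minus strand. All 40 genes are annotated as protein-coding, and counts cover all exons of a gene together. For 12 of the 40, among them Eng, Acvr2a and Ltbp3, an exon overlaps that of another gene, which makes their values less certain.

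Among the 10 secreted factors, Bmp2 had the highest level per kilobase in NP+ cells and the lowest p of those that were higher. Bmp2 encodes a BMP that signals through Smad1 and Smad5. Its levels were 109, 106.2 and 88.9 CPM (NP+) against 36.6, 26.8 and 15.4 CPM (NP-). Every NP+ library lay above every NP- library, and the mean was 3.86 times as high. The log2 fold change was 1.95 (SE 0.30, adjusted p = 0.0681), and within the tumours it was 1.58, 1.99 and 2.53. Without the NP- library of MET-106 Bmp2 passed, at 2.32 (adjusted p = 0.0126).

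Bmp4, a close relative of Bmp2 with the same receptors, stood at 26.0, 22.8 and 49.6 CPM (NP+) against 15.9, 16.8 and 7.97 CPM (NP-). The groups did not overlap, and MET-108 had both the highest NP+ and the lowest NP- value. Its log2 fold change was 1.27 (SE 0.39, adjusted p = 0.143), with 0.71, 0.44 and 2.64 within the tumours and 0.66 without MET-108. Inhbb, which encodes the activin B subunit, stood at 62.8, 98.1 and 83.5 CPM (NP+) against 28.2, 55.5 and 48.6 CPM (NP-). The highest NP- library was below the lowest NP+ library, and the log2 fold change of 0.89 (SE 0.28, adjusted p = 0.145) was close to its values within the tumours (1.16, 0.82 and 0.78).

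Tgfb3, 1 of the 3 TGF-beta isoforms, was the ligand gene with the lowest p in the opposite direction. Its levels were 5.19, 3.93 and 3.09 CPM (NP+) against 31.0, 20.5 and 17.4 CPM (NP-). NP- libraries held 5.64 times the NP+ mean, and the groups were far apart in all 3 tumours. The log2 fold change was -2.495 (SE 0.35, adjusted p = 0.0600), and -2.58, -2.38 and -2.49 within the tumours. Tgfb3 passed without the NP- library of MET-106, at -2.16 (adjusted p = 0.0230).

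The other 2 isoforms had overlapping groups. Tgfb1, the most studied isoform, had 17.7 ± 2.83 CPM (NP+) against 12.8 ± 5.73 CPM (NP-), and Tgfb2 had 21.2 ± 1.72 CPM (NP+) against 20.7 ± 3.49 CPM (NP-). Their log2 fold changes were 0.46 (SE 0.35, adjusted p = 0.423) and 0.035 (SE 0.24, adjusted p = 0.934). The 95% confidence intervals were -0.33 to 1.26 for Tgfb1 and -0.50 to 0.57 for Tgfb2, against -3.29 to -1.70 for Tgfb3. The difference between isoforms was not tested. Without the NP- library of MET-106, whose Tgfb1 level of 19.4 CPM lay within the NP+ range, the value of Tgfb1 was 0.95 (adjusted p = 0.0671). The value of Tgfb2 was -0.22 under upper-quartile scaling and -0.27 under total-count scaling.

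Inhba, which encodes the activin A subunit, stood at 1.21, 0.401 and 0.652 CPM (NP+) against 20.1, 1.46 and 2.76 CPM (NP-). The NP- library of MET-106 was far above every other library, and the other NP- libraries also lay above all NP+ libraries. Its log2 fold change was -3.43 (SE 1.02, adjusted p = 0.139), and -1.43 (adjusted p = 0.244) without that library. Gdf15, a stress-induced member of the family, stood at 2.498, 2.24 and 3.61 CPM (NP+) against 11.8, 1.79 and 11.5 CPM (NP-). The NP- library of MET-107 lay below all NP+ libraries, so the groups overlapped, and the log2 fold change was -1.59 (SE 0.67, adjusted p = 0.201).

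Bmp6, an iron-regulated BMP of endothelial cells, was low in both groups, at 1.56 ± 0.414 CPM (NP+) against 1.86 ± 0.374 CPM (NP-), with a log2 fold change of -0.25 (SE 0.62, adjusted p = 0.815). Bmp1 is named with the BMPs but encodes a metalloproteinase that cleaves procollagens and the BMP antagonist chordin. It stood at 54.5, 76.5 and 54.6 CPM (NP+) against 75.4, 36.8 and 35.0 CPM (NP-). The NP- library of MET-106 was at the level of the highest NP+ library and the other NP- libraries were below all NP+ libraries, with a log2 fold change of 0.33 (SE 0.32, adjusted p = 0.524), and 0.84 (adjusted p = 0.0559) without that library. Per kilobase of counted exons, the secreted factors of highest mean level in NP+ were Bmp2 (28.6 CPM per kb), Inhbb (19.1), Bmp1 (16.5) and Bmp4 (14.8). In NP- they were Bmp1 (13.1), Inhbb (10.4), Bmp2 (7.39) and Tgfb3 (6.78).

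**Figure D2:**
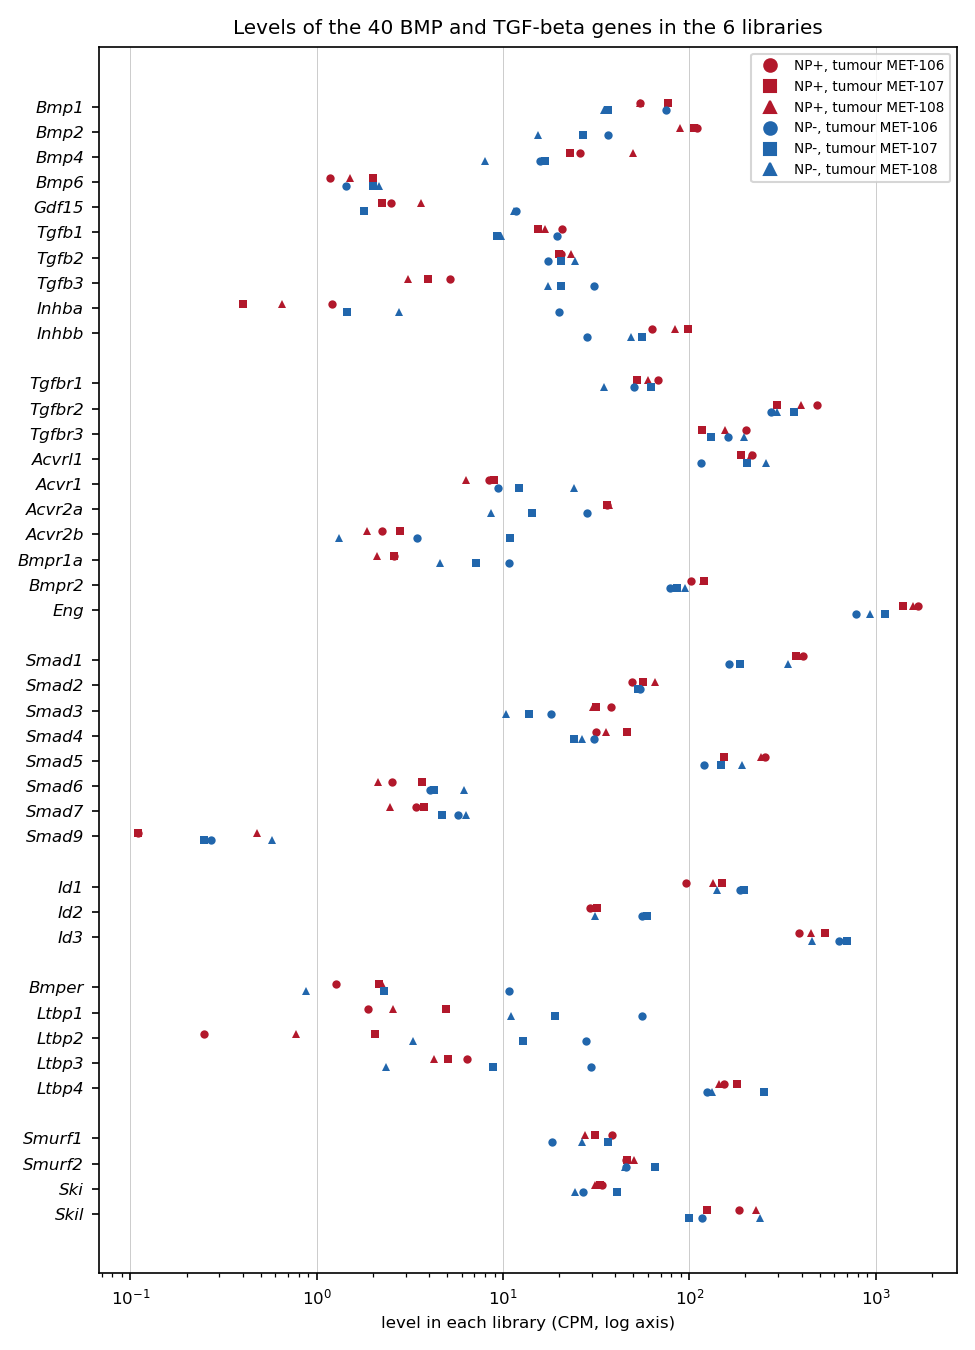
Level of each of the 40 genes (y axis, in the same groups) in each of the 6 libraries (x axis, CPM on a log axis), with NP+ in red, NP- in blue and 1 symbol per tumour. Bmp2, Smad3 and Eng show red points to the right of all blue points, and Tgfb3, Ltbp1 and Ltbp2 show them to the left.

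Of the 10 receptor genes, Eng had by far the highest level per length. It encodes endoglin, a co-receptor that presents BMP9 and BMP10 to ALK1. Its levels were 1686, 1408 and 1579.7 CPM (NP+) against 784, 1119 and 934 CPM (NP-). All NP+ libraries lay above all NP- libraries, and the log2 fold change was 0.72 (SE 0.19, adjusted p = 0.126). The values within the tumours were 1.10, 0.33 and 0.76, beside the median of 0.42 for the 10 endothelial markers. Eng shares exon positions with Fpgs, whose reads cannot be told apart where strand was not used, but Fpgs had at most 1309 counts in any library against 61425 for Eng in the NP+ library of MET-106.

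The type I receptor genes Acvrl1 and Tgfbr1 showed no such separation. Acvrl1, which encodes ALK1, stood at 217, 190.1 and 213 CPM (NP+) against 115, 203 and 257 CPM (NP-). The NP- libraries lay both below and above the NP+ libraries, and the log2 fold change was 0.11 (SE 0.27, adjusted p = 0.812) with a 95% confidence interval of -0.51 to 0.73. Its sign turned with upper-quartile (-0.16) and total-count scaling (-0.20). Tgfbr1, the gene of the TGF-beta type I receptor ALK5, stood at 67.6, 52.4 and 59.7 CPM (NP+) against 50.3, 62.2 and 34.9 CPM (NP-), with overlap and a log2 fold change of 0.29 (SE 0.24, adjusted p = 0.474). Acvr1 (ALK2) was lower in NP+, at 8.40, 8.96 and 6.30 CPM (NP+) against 9.44, 12.2 and 24.0 CPM (NP-). The groups did not overlap, by a margin of under 1 CPM, and the log2 fold change was -0.94 (SE 0.40, adjusted p = 0.201), and -0.43 (adjusted p = 0.412) without the NP- library of MET-108.

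Bmpr1a, the gene of the BMP type I receptor ALK3, had low levels of 2.61, 2.60 and 2.11 CPM (NP+) against 10.8, 7.19 and 4.61 CPM (NP-). NP+ libraries were all below NP- libraries, with the highest value in the NP- library of MET-106. The log2 fold change was -1.62 (SE 0.47, adjusted p = 0.134), -2.05, -1.47 and -1.13 within the tumours and -1.22 (adjusted p = 0.115) without that library.

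The type II receptor genes were split. Acvr2a, an activin and BMP receptor gene, stood at 36.1, 36.1 and 36.8 CPM (NP+) against 28.2, 14.3 and 8.64 CPM (NP-). The NP+ libraries were within 1 CPM of each other, whereas the NP- libraries were all lower and far apart. Its log2 fold change was 1.09 (SE 0.39, adjusted p = 0.165), and 1.72 (adjusted p = 0.0235) without the NP- library of MET-106. Acvr2a shares exon positions with Orc4, which had up to 4126 counts in a library against 1315 for Acvr2a in the NP+ library of MET-106, so its value is uncertain.

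Bmpr2, the BMP type II receptor gene, stood at 103, 120.4 and 118 CPM (NP+) against 78.3, 85.5 and 94.9 CPM (NP-). The groups did not overlap, yet the difference was small, at 0.40 (SE 0.17, adjusted p = 0.202), near the median of 0.42 for the 10 endothelial markers. Of those markers, 5 were also higher in NP+ with no overlap. Tgfbr2, the TGF-beta type II receptor gene, stood at 481, 297 and 396 CPM (NP+) against 273, 363 and 294 CPM (NP-), with overlapping groups and a log2 fold change of 0.34 (SE 0.22, adjusted p = 0.357). Acvr2b, a relative of Acvr2a, was low, at 2.30 ± 0.476 CPM (NP+) against 5.21 ± 5.00 CPM (NP-), with the highest value (10.9 CPM) in the NP- library of MET-107 and a log2 fold change of -1.17 (SE 0.74, adjusted p = 0.345). Tgfbr3, which encodes the co-receptor betaglycan, had 158 ± 42.6 CPM (NP+) against 163 ± 33.7 CPM (NP-) and a log2 fold change of -0.046 (SE 0.24, adjusted p = 0.916), whose 95% confidence interval was -0.60 to 0.51.

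Per kilobase of counted exons, mean NP+ levels ran in the order Eng (385 ± 34.7 CPM per kb), Acvrl1 (48.5 ± 3.41), Tgfbr2 (47.8 ± 11.3), Tgfbr3 (24.1 ± 6.52) and Tgfbr1 (9.17 ± 1.17). Acvr2a (6.39 ± 0.0760), Bmpr2 (6.32 ± 0.535), Acvr1 (1.63 ± 0.291), Acvr2b (0.587 ± 0.121) and Bmpr1a (0.384 ± 0.0453) followed. Acvrl1 and Tgfbr2, and Acvr2a and Bmpr2, are neighbours whose levels differed by less than their SD. In NP- the order was the same down to Tgfbr1, followed by Bmpr2 (4.796 CPM per kb), Acvr1 (3.15), Acvr2a (3.00), Acvr2b (1.33) and Bmpr1a (1.19). The counted length joins all annotated exons, so genes with long, little used exons have lower values on this scale.

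**Figure D3:**
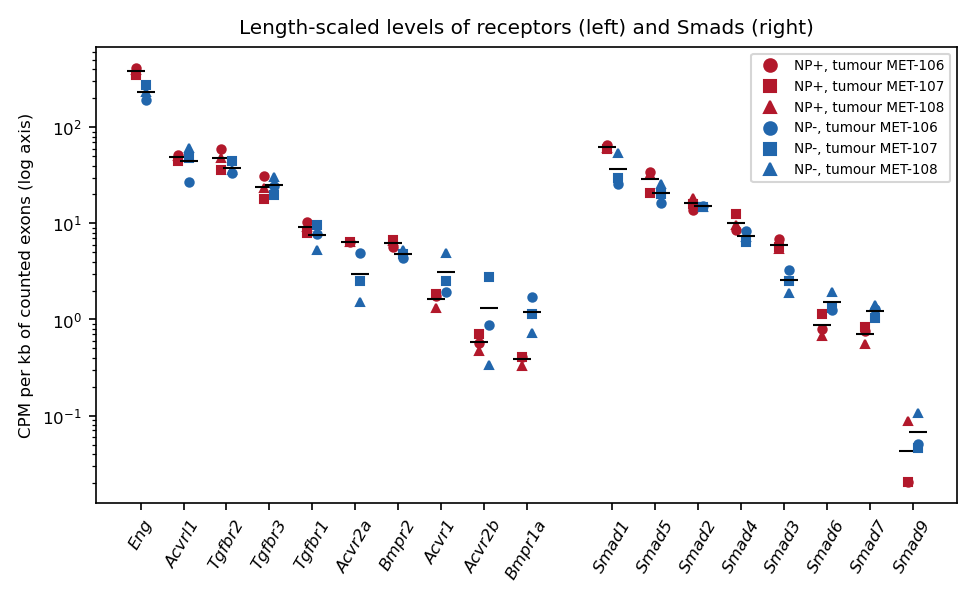
Levels per kilobase of counted exons (y axis, CPM per kb, log axis) of the 10 receptor genes (left) and 8 Smad genes (right), with 1 point per library and horizontal marks at the mean of 3. Eng stands highest in both groups, at 385 in NP+ and 234 in NP-, and Smad9 lowest.

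Smad1 and Smad3, receptor-activated Smads of the 2 branches, were higher in NP+. Smad1 stood at 409, 373 and 382 CPM (NP+) against 163, 187 and 336 CPM (NP-). NP+ libraries lay within a narrow range above all NP- libraries, of which that of MET-108 came close. The log2 fold change was 0.76 (SE 0.27, adjusted p = 0.163), with 1.33, 0.99 and 0.18 within the tumours and 1.17 (adjusted p = 0.0329) without the NP- library of MET-108. Smad3 stood at 37.8, 31.4 and 30.3 CPM (NP+) against 18.2, 13.8 and 10.4 CPM (NP-), with the groups well apart. Its log2 fold change was 1.23 (SE 0.27, adjusted p = 0.107), 1.06, 1.18 and 1.55 within the tumours and 1.51 (adjusted p = 0.0255) without the NP- library of MET-106.

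Their partners on each branch showed smaller differences. Smad5, the other main BMP Smad, had 217 ± 55.4 CPM (NP+) against 154 ± 35.9 CPM (NP-), with a log2 fold change of 0.50 (SE 0.25, adjusted p = 0.261). Smad2, the partner of Smad3, had 57.2 ± 8.15 CPM (NP+) against 53.3 ± 0.766 CPM (NP-), with a log2 fold change of 0.10 (SE 0.18, adjusted p = 0.737) that was -0.14 under upper-quartile and -0.19 under total-count scaling. Its 95% confidence interval of -0.31 to 0.52 lay below the 0.62 to 1.84 of Smad3. The difference between the 2 genes was not tested. Smad4, the partner of both branches, stood at 31.5, 46.5 and 35.5 CPM (NP+) against 30.8, 24.0 and 26.6 CPM (NP-). Its lowest NP+ library lay above the highest NP- library by under 1 CPM, and the log2 fold change was 0.48 (SE 0.23, adjusted p = 0.240).

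The inhibitory Smads, which are feedback targets of the pathway, were low in both groups. Smad6, the inhibitor of the BMP branch, stood at 2.53, 3.68 and 2.13 CPM (NP+) against 4.03, 4.24 and 6.19 CPM (NP-), and Smad7, which acts on both branches, at 3.40, 3.75 and 2.48 CPM (NP+) against 5.77, 4.70 and 6.36 CPM (NP-). For both genes all NP+ libraries lay below all NP- libraries. Their log2 fold changes were -0.79 (SE 0.48, adjusted p = 0.329) and -0.80 (SE 0.43, adjusted p = 0.286), so neither had a p under 0.05. Smad9, the third BMP Smad, was near the limit of detection, at 0.232 ± 0.212 CPM (NP+) against 0.364 ± 0.180 CPM (NP-), with 4 counts in the NP+ library of MET-106.

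Per kilobase, Smad1 led in NP+ (61.9 ± 3.00 CPM per kb), followed by Smad5 (29.2 ± 7.47), Smad2 (16.1 ± 2.30), Smad4 (10.2 ± 2.09) and Smad3 (5.99 ± 0.730). In NP- the same order held, with 36.5, 20.7, 15.01, 7.31 and 2.55 CPM per kb. Smad6 and Smad7 stood at 0.867 and 0.711 in NP+ and at 1.504 and 1.24 in NP-.

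The 3 Id genes, whose helix-loop-helix proteins block other transcription factors and which are direct targets of BMP Smads, were lower in NP+ in 3 of 3 tumours. Id1 stood at 95.5, 149 and 134 CPM (NP+) against 186, 196 and 140.1 CPM (NP-). Id2 stood at 29.3, 32.1 and 30.6 CPM (NP+) against 55.9, 59.6 and 31.0 CPM (NP-). Id3 stood at 386, 538 and 449 CPM (NP+) against 633, 702 and 454 CPM (NP-). In each case the NP- libraries of MET-106 and MET-107 lay above all NP+ libraries, while that of MET-108 fell within the NP+ range. The log2 fold changes were -0.47 (SE 0.22, adjusted p = 0.238) for Id1, -0.67 (SE 0.27, adjusted p = 0.182) for Id2 and -0.38 (SE 0.22, adjusted p = 0.303) for Id3, and within MET-108 they were -0.065, -0.019 and -0.015. The sign of all 3 was the same in every fit run, including each scaling, but the size was not. Without MET-106 the log2 fold changes were -0.055 for Id1, -0.33 for Id2 and -0.032 for Id3. Id levels were thus lower in the fraction in which Bmp2, Bmp4, Eng and Smad1 levels were higher, and none of these 7 differences passed. Among all tested genes, 20.0% were higher and 30.2% lower in 3 of 3 tumours, and the median log2 fold change was -0.29.

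Ltbp1 and Ltbp2, which encode matrix proteins of the latent TGF-beta binding protein family, had the lowest ratios of NP+ to NP- among the extracellular modulators. Ltbp1, which tethers latent TGF-beta to the matrix, stood at 1.89, 4.92 and 2.56 CPM (NP+) against 55.5, 19.1 and 11.0 CPM (NP-). Ltbp2, a relative that does not bind TGF-beta and associates with elastic fibres, stood at 0.247, 2.06 and 0.778 CPM (NP+) against 27.8, 12.8 and 3.30 CPM (NP-). For both genes the NP- library of MET-106 was highest and no NP+ library reached an NP- library. The log2 fold changes were -3.19 (SE 0.64, adjusted p = 0.0989) and -3.81 (SE 0.94, adjusted p = 0.120). Without the NP- library of MET-106 they were -2.21 (adjusted p = 0.0434) for Ltbp1 and -2.89 (adjusted p = 0.0782) for Ltbp2.

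Ltbp3, which also carries latent TGF-beta, stood at 6.37, 5.08 and 4.24 CPM (NP+) against 29.5, 8.81 and 2.35 CPM (NP-), and Bmper, a secreted BMP-binding protein gene of endothelial cells, at 1.26, 2.15 and 2.23 CPM (NP+) against 10.8, 2.29 and 0.875 CPM (NP-). Both had their highest value in the NP- library of MET-106 and their lowest in that of MET-108, and neither had a p under 0.05 (adjusted p = 0.288 and 0.365). Without that library of MET-106 the log2 fold change of Ltbp3 moved from -1.38 to -0.031, and that of Bmper turned from -1.31 to 0.31. Ltbp4, which had the highest level per kilobase of the 4 Ltbp genes in both groups (24.7 CPM per kb in NP+ and 26.3 in NP-), stood at 154, 181 and 145 CPM (NP+) against 125, 252 and 133 CPM (NP-), with the highest value in the NP- library of MET-107 and a log2 fold change of -0.088 (SE 0.28, adjusted p = 0.855).

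Markers of stromal cells were lower in NP+ as well. The summed level of 8 fibroblast markers was 58.1, 45.4 and 15.8 CPM (NP+) against 3796, 145 and 60.6 CPM (NP-), and 8 of 8 were lower in NP+ at p under 0.05. That of 8 pericyte markers was 114, 113 and 92.2 CPM (NP+) against 790.4, 235 and 143 CPM (NP-), with 6 of 8 lower. Of all tested genes, 15.4% were lower at p under 0.05, a share that applies to each marker count here and below. Without the NP- library of MET-106, 2 of the 8 fibroblast markers (Pdgfra and Col1a1) and 0 of the 8 pericyte markers passed as lower, against 4.86% of all genes in that fit. In that fit Lum stood at -1.17 (adjusted p = 0.520), Col3a1 at -0.84 (adjusted p = 0.506) and Rgs5 at -1.17 (adjusted p = 0.359). The 6 tested of 8 epithelial and 4T1 markers summed to 8.24, 12.1 and 13.2 CPM (NP+) against 592, 32.8 and 16.5 CPM (NP-), with 6 of 6 lower. With the tumour as a block, Epcam and Cdh1 alone of these 6 had a p under 0.05. Within the tumours the log2 ratio of Krt8 was -6.07, 3.33 and 0.55, and without the NP- library of MET-106 Krt8 and Krt18 stood at 1.13 (adjusted p = 0.351) and 0.73 (adjusted p = 0.627). The fibroblast marker Lum was at 0.220, 0.0546 and 0.1003 CPM (NP+) against 105, 0.249 and 0.336 CPM (NP-), near 0 in all libraries but one. The epithelial marker Krt5 had 0 counts in 2 NP+ libraries. The part of these cell types in the levels of Ltbp1, Ltbp2, Inhba and Tgfb3 was not tested. Within the tumours the log2 ratio of Tgfb3 was -2.58, -2.38 and -2.49, that of Pdgfra, a fibroblast marker, -3.71, -2.47 and -4.38, and that of the pericyte markers Notch3 and Pdgfrb -2.17, -2.33 and -3.34, and -3.33, -2.69 and -1.95. Pdgfra, Notch3 and Pdgfrb are a selection from these lists, and other markers were less even. The ratio of Dcn was -5.76, -0.17 and -1.76, and that of Col3a1 -5.71, -1.80 and -0.65. Kcnj8 was the 1 pericyte marker of 8 that was not lower, with a log2 fold change of 0.087.

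Levels of macrophage and lymphatic markers differed as well. The 10 macrophage markers summed to 28.6, 26.4 and 17.5 CPM (NP+) against 123, 69.2 and 42.8 CPM (NP-). Of the 10, 5 were lower in NP+ at p under 0.05 and 0 were higher. The log2 fold change was positive for 3 of the 10, at 1.19 (C1qa), 0.18 (C1qb) and 1.24 (C1qc). C1qa was at or below 1 CPM in all 6 libraries. Most of the sum in the NP- library of MET-106 came from 1 gene, Lyz2. The 7 lymphatic endothelial markers summed to 402, 457 and 399 CPM (NP+) against 255, 1761 and 733 CPM (NP-), with 4 of 7 lower. The NP- library of MET-107, which had the highest lymphatic sum, also had the highest level of Ltbp4, Acvr2b, Id1, Id2, Id3, Smurf2 and Ski. The share of all tested genes with their highest level in that library was not worked out. This list is therefore not a result about the genes named. The part of lymphatic cells in their levels was not tested. Lymphocyte markers summed to at most 32.5 CPM and platelet markers to at most 15.8 CPM in any library.

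**Figure D4:**
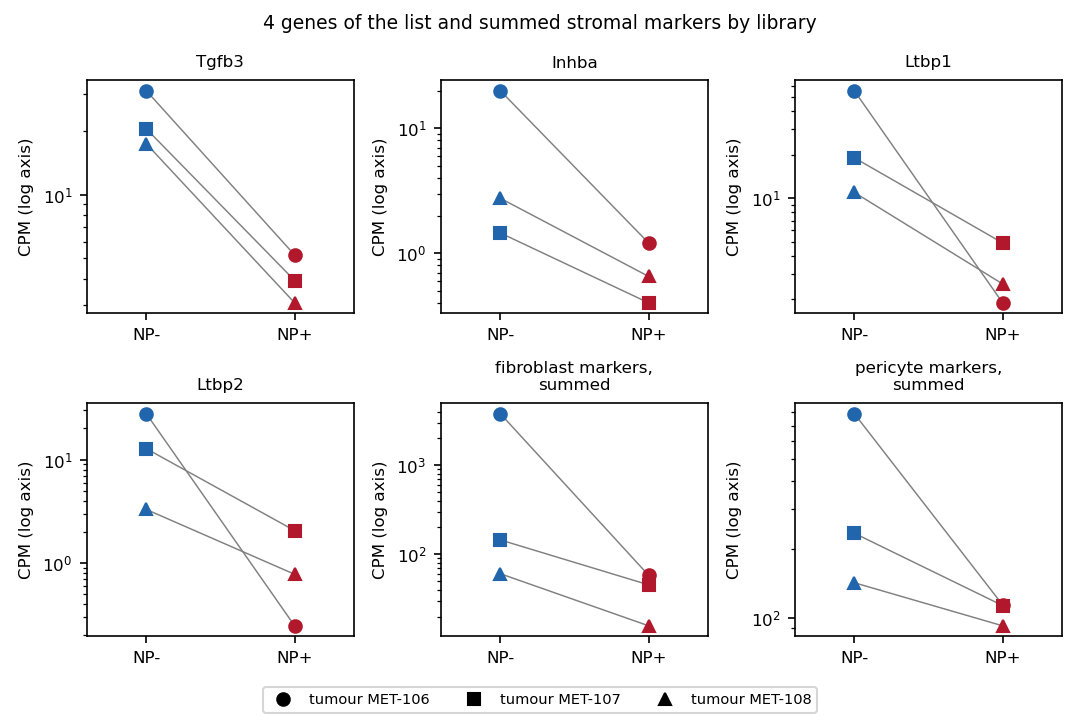
Levels (y axis, CPM on a log axis with its own range in each panel) of Tgfb3, Inhba, Ltbp1 and Ltbp2 and summed levels of 8 fibroblast and 8 pericyte markers in NP- and NP+ libraries (x axis), with lines joining the libraries of 1 tumour. The NP- library of MET-106 is highest in all 6 panels, with a fibroblast sum of 3796 CPM, and the NP+ library is below the NP- library of its tumour in every panel.

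The 4 intracellular inhibitors had overlapping groups and no p under 0.05. The ubiquitin ligase genes Smurf1 and Smurf2, whose products mark Smads and receptors for degradation, had 32.4 ± 5.62 against 27.0 ± 9.03 CPM and 47.3 ± 2.47 against 52.0 ± 11.7 CPM (NP+ against NP-). The transcriptional co-repressor genes Ski and Skil had 32.7 ± 1.45 against 30.8 ± 8.85 CPM and 179 ± 52.4 against 152 ± 75.8 CPM. Their log2 fold changes ran from -0.14 for Smurf2 to 0.26 for Smurf1, with adjusted p from 0.576 to 0.832. The 95% confidence intervals (-0.39 to 0.91 for Smurf1, -0.61 to 0.34 for Smurf2, -0.47 to 0.65 for Ski and -0.56 to 1.04 for Skil) leave room for changes of up to 1.04 on the log2 scale. With total-count scaling the values of Smurf1, Ski and Skil turned to -0.051, -0.22 and -0.059.

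The rest of the pathway was read from lists of 121 further genes, of which 99 were tested. None passed in edgeR's test, 8 were higher and 23 lower at p under 0.05, and DESeq2 gave an adjusted p under 0.05 for 7 higher and 18 lower genes. The shares of the 99, 8.08% and 23.2% at p under 0.05, stand beside 8.01% and 15.4% of all tested genes, so the share of higher genes was near that of the whole table. The same shares apply to the counts per list below. Without the NP- library of MET-106, 3 of the 99 passed as higher and 7 as lower, among them Fbn1, Fkbp1a, Tmem100, Gja4, Gja5, Ccn2 and Col1a1, against 3.48% and 4.86% of all genes in that fit. The median log2 fold change of the 99 was -0.075. Genes with a mean of at least 5 CPM over the 6 libraries and the smallest p are described, and Itgav, Hey2, Col4a1, Chrdl1, Fst, Fstl3, Sostdc1, Bmp3, Bmp5, Bmpr1b, Gdf2 and Bmp10 are named after their values were seen. Among activators of latent TGF-beta, 4 of 13 were higher (Thbs1, Lrrc32, Nrros and the integrin gene Itgav) and 6 lower. Thbs1, which encodes the TGF-beta activator thrombospondin-1, stood at 1057, 626 and 1409.7 CPM (NP+) against 367, 373 and 631 CPM (NP-), with slight overlap and a log2 fold change of 1.17 (SE 0.33, adjusted p = 0.130). Lrrc32 and Nrros, whose products anchor latent TGF-beta on the cell surface, had 280.0 ± 36.2 against 166 ± 31.2 CPM (adjusted p = 0.126) and 381 ± 52.0 against 229 ± 35.7 CPM (adjusted p = 0.125), with no overlap. Fbn1, a microfibril gene that holds latent complexes in the matrix, was lower, at 14.3, 15.6 and 11.1 CPM (NP+) against 70.9, 34.0 and 26.5 CPM (NP-), with no overlap and a log2 fold change of -1.68 (SE 0.37, adjusted p = 0.109), and -1.09 (adjusted p = 0.0462) without the NP- library of MET-106. The surface anchors Lrrc32 and Nrros lay in the opposite direction to the matrix genes Fbn1 and Ltbp1. These genes are a selection, and the other Ltbp genes were not alike. Ltbp2 was lower as well (-3.81), whereas Ltbp4 was at -0.088. Ltbp3 was at -1.38, and at -0.031 without the NP- library of MET-106.

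Among 15 tested BMP and ALK1 target genes of endothelium, 0 were higher and 4 lower at p under 0.05. Tmem100, an ALK1 target, stood at 15.8, 14.6 and 11.2 CPM (NP+) against 26.4, 42.2 and 41.5 CPM (NP-). NP+ libraries were all below NP- libraries, with a log2 fold change of -1.40 (SE 0.27, adjusted p = 0.0901). The arterial connexin genes Gja4 and Gja5 had log2 fold changes of -1.09 (SE 0.22, adjusted p = 0.0941) and -0.99 (SE 0.21, adjusted p = 0.102), again with no overlap, and the fourth was the Notch and BMP target Hey2 (0.346 ± 0.181 against 1.82 ± 0.332 CPM). The ephrin gene Efnb2 had 22.5 ± 5.84 against 31.1 ± 10.7 CPM with overlap (adjusted p = 0.384). The sign of these values was that of Id1, Id2 and Id3, measured in the same libraries, and that of the median of all tested genes (-0.29).

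Among 16 tested TGF-beta target genes, 2 were higher and 3 lower at p under 0.05. Ccn2, which encodes connective tissue growth factor and also responds to YAP, stood at 1065, 845 and 1458 CPM (NP+) against 355, 306 and 159 CPM (NP-). The groups were far apart, and the log2 fold change was 2.04 (SE 0.33, adjusted p = 0.0786). The other higher gene was the basement membrane collagen gene Col4a1, at 15264 ± 2494 against 8661 ± 3763 CPM. The 3 lower genes were Col1a1, Col1a2 and Acta2, which are themselves on the fibroblast or pericyte marker lists. Col1a1 stood at 4.56, 2.46 and 1.30 CPM (NP+) against 637, 18.2 and 17.6 CPM (NP-), Col1a2 at 6.81, 9.29 and 2.21 CPM (NP+) against 764, 23.7 and 8.34 CPM (NP-) and Acta2 at 17.3, 15.2 and 9.06 CPM (NP+) against 341, 54.0 and 26.4 CPM (NP-), all with the NP- library of MET-106 highest and with overlap for Col1a2. Their log2 fold changes were -6.34, -5.44 and -3.34 (adjusted p by edgeR 0.115, 0.135 and 0.124), and without that library they were -2.64 (adjusted p = 0.0344), -1.33 (adjusted p = 0.177) and -1.48 (adjusted p = 0.0531).

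Of 13 tested extracellular antagonists and binding proteins, 0 were higher and 5 lower at p under 0.05. Bambi, a decoy receptor gene, stood at 149.9, 132 and 142 CPM (NP+) against 89.2, 77.2 and 12.7 CPM (NP-), with no overlap and adjusted p = 0.221, and the NP- library of MET-108 lay far below the others. The log2 fold change of Bambi was 1.24, and 0.79 without that library. Twsg1, a BMP-binding protein gene, had 87.9 ± 3.32 against 56.0 ± 28.0 CPM (log2 fold change 0.65, adjusted p = 0.290, and 1.08 without the NP- library of MET-106) and Crim1, a BMP-binding transmembrane protein gene, 93.7 ± 5.87 against 67.4 ± 21.2 CPM (adjusted p = 0.258). Dcn, a matrix proteoglycan gene on the fibroblast list, stood at 4.53, 6.63 and 3.14 CPM (NP+) against 245, 7.44 and 10.6 CPM (NP-) with 1 library far above the rest and a log2 fold change of -4.20 (SE 1.25, adjusted p = 0.139), and -0.87 (adjusted p = 0.197) without that library. The other 4 lower genes, Chrdl1, Fst, Fstl3 and Sostdc1, encode secreted antagonists and had NP- means of 7.04, 3.38, 2.16 and 1.25 CPM and NP+ means of 0.842, 0.979, 0.203 and 0.126 CPM.

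Of 24 tested regulators of Smad activity, 2 were higher and 2 lower at p under 0.05. Fkbp1a, whose product holds type I receptors inactive, stood at 2290.4, 2299 and 2470.1 CPM (NP+) against 1714, 1172 and 614 CPM (NP-), with no overlap and a log2 fold change of 1.01 (SE 0.33, adjusted p = 0.147). Usp9x, a deubiquitinase gene that acts on Smad4, had 105 ± 21 against 65.1 ± 9.76 CPM (adjusted p = 0.143). Zeb2, a Smad-interacting repressor gene, and Runx1, a Smad partner gene, were lower, at 3.80 ± 1.73 against 18.9 ± 17.8 CPM (adjusted p = 0.142) and 1.56 ± 0.351 against 9.59 ± 12.1 CPM (adjusted p = 0.154). Both were highest in the NP- library of MET-106, and without it their log2 fold changes went from -2.31 to -1.13 and from -2.62 to -0.70.

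Further ligands were scarce. Of 24 genes 11 were tested, 0 were higher and 2 lower at p under 0.05, and Bmp15, known as an oocyte factor gene, alone reached a mean of 5 CPM over the 6 libraries, with 8.62 ± 2.83 against 8.28 ± 0.717 CPM (adjusted p = 0.929). The 2 lower ones were Bmp3 (0.773 ± 0.323 against 3.75 ± 3.14 CPM) and Bmp5 (0.501 ± 0.166 against 2.35 ± 0.844 CPM). The genes of the ALK1 ligands BMP9 and BMP10 (Gdf2 and Bmp10) did not pass the low-count filter. Of 9 further receptors and co-receptors 7 were tested, with 0 higher and 1 lower (the BMP type I receptor gene Bmpr1b, 0.454 ± 0.196 against 2.47 ± 0.964 CPM). Acvr1b, the activin type I receptor gene, had 5.42 ± 0.993 against 4.81 ± 2.42 CPM (adjusted p = 0.843).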

How the data were processed

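RNA of sorted NP+ and NP- tumour endothelial cells was amplified with SMART-Seq v4 and sequenced as 150-base read pairs, per the labels' protocols, with neither strand marks nor molecular identifiers, so counting error covers reads and not molecules. The deposited counts per gene were made by the authors from GRCm38 alignments, and the submitters' processing notes name Trimmomatic 0.036, the aligner STAR 2.5.2b, Subread 1.5.2 with featureCounts, and DESeq2. Not given in the sources used here are the annotation release and how strand and multiple matches were treated. A further deposited table holds the authors' normalized signal (counts divided by a size factor per library), log2 fold change, p-value and adjusted p-value. Its sign is NP- over NP+ for 99.9% of genes and was turned. Its signal gave whole reads for 100% of 156426 values (within 0.01 reads), all equal to the deposited counts, and edgeR on those reads called 3 genes higher and 4 lower.

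The counts were tested in R 4.3.3 with edgeR 4.0.16 (TMM scaling, quasi-likelihood test, Benjamini-Hochberg adjustment at 0.05) on the 6 libraries, without a block, over 23989 genes kept by edgeR's filter at a minimum count of 10. The script was tested on simulated data. Both fractions of a tumour came from the same animal, which pairs the libraries, and deviations from the group means correlated at 0.241, 0.194 and 0.0593 within MET-106, MET-107 and MET-108. Alternatives were the tumour block, DESeq2 1.42.0, limma-voom (limma 3.58.1), other scalings and filters, and leaving out libraries or tumours. Members and gene lists were chosen with earlier results of these data known. Values per library are given for members with a p under 0.05 or groups that do not overlap, and for 11 receptors, Smads and Id genes whatever their p. Those of Bmp1, Ltbp3, Ltbp4 and Bmper were added after their values were seen. Up to 4 further pathway genes per list were named by the smallest p at a mean of at least 5 CPM. Hjv could not be matched to an ID.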

Additional observations from a re-analysis of the deposited data

How the results depend on the processing

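Where a count or sign depends on a setting the cause was not tested, beyond the fewer genes or libraries that a setting itself implies. With 3 libraries a group only differences far above the spread between libraries can pass. Genes near or below 1 CPM, such as Smad9 and Bmp6 in both groups and Inhba in NP+, rest on few reads. Inhba had 960 counts in the NP- library of MET-106. With the tumour as a replicate block, 13 genes of the whole table were lower (4 without it) and 5 of the 40 were lower at p under 0.05 (8 without it), and no call among the 40 changed. DESeq2 called 966 genes higher and 2365 lower, with 6 and 5 of the 40. DESeq2 with the replicate block, added after seeing the data, called 1256 and 2719, with 7 and 5 of the 40. limma-voom called 12 genes higher, and 5 of the 40 were lower at p under 0.05. Without a low-count filter 525 and 686 genes were called, with 4 and 4 of the 40 and a median of 0.19. With at least 5 CPM in 3 libraries 18 and 87 genes were called, 1 of the 40 lower, 4 of the 40 were higher at p under 0.05 and 5 without overlap. With that filter and the replicate block, also added after seeing the data, 44 and 183 genes were called, with 1 and 2 of the 40, and 4 were higher at p under 0.05. Upper-quartile scaling called 18 genes lower, with 1 of the 40, left 5 of the 40 higher at p under 0.05 and 5 without overlap, and gave a median of -0.27. Total-count scaling called 9 genes lower, left 3 and 5, and gave a median of -0.31. Shares of all tested genes at p under 0.05 were not worked out for limma-voom and the 5 CPM filter. Shares without overlap were not worked out for any of these settings. The member counts of these kinds are therefore not a result about the 40.

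Over the fits that left out a library or a tumour, 0 to 968 genes were called higher and 0 to 1352 lower, the highest counts being without the NP- library of MET-106. Of the 40, 0 to 3 were called higher and 0 to 3 lower, 4 to 10 were higher and 3 to 11 lower at p under 0.05, and 9 to 16 higher and 7 to 14 lower without overlap. The matching shares of all tested genes at p under 0.05 or without overlap were not worked out for these fits. Groups of fewer libraries also overlap less often for any gene. These counts are therefore not a result about the 40. The sign of genes without a p under 0.05 turned in some of these fits. The lowest and highest log2 fold changes were -0.022 and 1.06 for Bmp1, -0.43 and 0.050 for Bmp6, -0.023 and 0.19 for Tgfb2, -0.17 and 0.21 for Tgfbr3, -0.10 and 0.47 for Acvrl1, and -1.94 and 0.67 for Bmper. They were -0.21 and 0.32 for Ltbp4, -0.20 and 0.077 for Smurf2, -0.024 and 0.36 for Ski, -0.17 and 0.32 for Bmp15, and -0.13 and 0.58 for Acvr1b.

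Other signs that turned were those of genes near 0. With upper-quartile scaling the values were -0.22 (Tgfb2), -0.16 (Acvrl1), -0.14 (Smad2), -0.15 (Ski), -0.039 (Skil), -0.20 (Bmp15) and -0.049 (Acvr1b). With total-count scaling they were -0.27 (Tgfb2), -0.025 (Tgfbr1), -0.20 (Acvrl1), -0.19 (Smad2), -0.051 (Smurf1), -0.22 (Ski), -0.059 (Skil), -0.25 (Bmp15) and -0.13 (Acvr1b). With at least 5 CPM in 3 libraries they were -0.24 (Tgfb2), -0.17 (Acvrl1), -0.16 (Smad2), -0.024 (Smurf1), -0.19 (Ski), -0.035 (Skil), -0.22 (Bmp15) and -0.10 (Acvr1b), and with that filter and the replicate block -0.22 (Tgfb2), -0.088 (Acvrl1), -0.18 (Smad2), -0.14 (Ski) and -0.26 (Bmp15). Without a filter Tgfbr3 was at 0.15, Ltbp4 at 0.14 and Smurf2 at 0.071, and Tgfbr3 was at 0.0064 with DESeq2 and with its size factors in edgeR. Ltbp4 was at 0.024 and Bmp15 at -0.0075 with limma-voom, and Ltbp4 at 0.039 with DESeq2 and the block.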
